A study of Homo sapiens with 9 samples.

Results

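DNA methylation is written, kept and removed by a small set of proteins, and 9 of their genes were followed here by name: the methyltransferases DNMT1, DNMT3A and DNMT3B, the recruiters UHRF1 and UHRF2, the oxidases TET1, TET2 and TET3, and the glycosylase TDG. Of these 9, 8 were found among the 15436 genes of the deposited table, 7 were abundant enough to test among 11346 tested genes, and TET1 was not analysed here. The samples were 9 RNA libraries of Raji, an established human B-cell line from a Burkitt lymphoma, with 3 libraries per group. One group had received hydroxyurea (HU), which inhibits ribonucleotide reductase and starves replication of deoxynucleotides. A second had received thymidine with nocodazole (Thy-Noc), where excess thymidine stalls DNA synthesis and nocodazole, a microtubule poison, holds cells in mitosis. The solvent DMSO was the control. All 3 groups share the one cell line, the labels state no dose or duration, and they do not say that replicates were separate cultures. The p-values therefore measure the spread between these libraries, which may be technical.

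As background, DNMT1 copies methyl groups onto the new strand behind the replication fork. UHRF1 binds the half-methylated site and brings DNMT1 to it, which ties the pair to S phase, and both genes are known E2F targets in dividing cells. DNMT3A and DNMT3B set new marks, and UHRF2, a relative of UHRF1, binds hydroxymethylated DNA. TET enzymes oxidise the methyl group, and TDG cuts out the oxidised base for repair. TET2 and DNMT3A are known as frequently mutated genes in blood cancers.

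Deposited values summed to 74940755 to 110485145 per library. Among B-cell markers, CD79B had 517 to 973 CPM (counts scaled to a common library size) over the 9 libraries, CD79A 244 to 336 CPM, PAX5 204 to 1012 CPM and MS4A1 13.0 to 30.3 CPM. CD22 was lower, at 0.915 to 8.64 CPM. Of 8 T-cell, myeloid and erythroid markers, LYZ was the 1 analysed here and lay between 0.216 and 0.924 CPM. A set of 12 G2/M genes summed to 865 to 1285 CPM in HU, 1676 to 2196 CPM in Thy-Noc and 1842 to 1899 CPM in DMSO, so HU lay below both other groups. The 12 G1/S genes summed to 1442 to 2255 CPM in HU, 1770 to 2154 CPM in Thy-Noc and 1698 to 2068 CPM in DMSO. In bulk RNA, fewer cells in a phase and less RNA per cell cannot be told apart.

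Promoter sequence is shown for 4 genes: UHRF1 for its level, and UHRF2, DNMT1 and DNMT3B for the differences described below, all chosen with the values known. Each line gives the 120 bases before a RefSeq start (build GRCh38.p14), 5′ to 3′ on the gene's strand, with CpG sites, the substrate of these enzymes, in capitals. The UHRF1, UHRF2, DNMT1 and DNMT3B stretches lie at chr19:4909381-4909500 (+), chr9:6413079-6413198 (+), chr19:10194954-10195073 (-) and chr20:32779732-32779851 (+). The UHRF1, DNMT1 and DNMT3B stretches lie inside the annotated gene spans given below, which have further starts upstream.
UHRF1: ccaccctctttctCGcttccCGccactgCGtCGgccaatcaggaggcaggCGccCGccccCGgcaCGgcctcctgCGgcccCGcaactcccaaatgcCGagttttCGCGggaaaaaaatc
UHRF2: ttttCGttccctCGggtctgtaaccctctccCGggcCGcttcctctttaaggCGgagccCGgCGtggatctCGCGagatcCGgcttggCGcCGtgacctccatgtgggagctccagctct
DNMT1: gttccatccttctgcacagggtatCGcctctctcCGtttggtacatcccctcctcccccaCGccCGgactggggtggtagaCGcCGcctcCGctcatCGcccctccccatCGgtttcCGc
DNMT3B: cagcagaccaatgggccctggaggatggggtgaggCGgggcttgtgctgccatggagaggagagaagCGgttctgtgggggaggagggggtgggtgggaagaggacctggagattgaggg
The UHRF1 stretch held 13 CpG sites, the UHRF2 stretch 12 and the DNMT1 stretch 10, while the DNMT3B stretch held 2. Over the full 250 bases before the start, these windows held 28, 23, 21 and 3 CpG sites, against a median of 11 over 35116 RefSeq windows. These counts hold for the starts shown. The upstream starts of UHRF1, DNMT1 and DNMT3B were not counted, so the low DNMT3B count need not hold there. The 4 E2F words searched (TTTCCCGC, TTTGGCGC, TTTGCCGC and TTTCGCGC) were read on both strands of these 250 bases. The UHRF1 window held TTTCCCGC on the opposite strand, starting 14 bases before the start, which reads gcgggaaa in the line above. Another UHRF1 window held TTTCGCGC, and no window of the other 8 genes held any of these words. Of all windows, 2.79% held at least 1. A match is a description of letters only, and no methylation was measured in these libraries.

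UHRF1 stood at the highest level of the set. The gene (ENSG00000276043) is annotated with 7 transcripts at chromosome 19, 4903080 to 4962154, plus strand (GRCh38). UHRF1 had 241, 152 and 121 CPM in the HU libraries, 119, 163 and 373 CPM in the Thy-Noc libraries, and 138, 358 and 373 CPM in the DMSO libraries. One library of Thy-Noc was as high as the upper pair of DMSO, and all groups overlapped. The UHRF1 log2 fold change (± SE) was −0.76 ± 0.55 for HU against DMSO, with a 95% interval from −2.04 to 0.52, and −0.41 ± 0.54 for Thy-Noc against DMSO, with one from −1.69 to 0.87. HU against Thy-Noc gave −0.35 ± 0.54. Without Thy-Noc replicate 3 the Thy-Noc against DMSO value was −1.04 and the HU against Thy-Noc value 0.29. None passed the edgeR quasi-likelihood test after adjustment over all genes (adjusted p 0.493, 0.9998 and 0.819). Per kilobase of merged exons, UHRF1 reached 56.4 ± 25.5 CPM in DMSO (mean ± SD, n = 3), against 3.51 ± 0.461 for TET3, 3.19 ± 0.83 for DNMT1 and 2.65 ± 0.418 for UHRF2. On the same per-kilobase scale in DMSO, DNMT3B had 0.456 ± 0.0861, TET2 0.218 ± 0.312, TDG 0.14 ± 0.173 and DNMT3A 0.0631 ± 0.0399 CPM. In this order, neighbours overlapped between TET3 and DNMT1, DNMT1 and UHRF2, DNMT3B and TET2, TET2 and TDG, and TDG and DNMT3A, while UHRF1 stood clear above TET3 and UHRF2 clear above DNMT3B. In HU the order was UHRF1 (33.3 ± 12.1 CPM per kilobase), UHRF2 (6.03 ± 0.242), TET3 (4.36 ± 0.291) and DNMT3B (3.29 ± 3.23). In Thy-Noc it was UHRF1 (42.4 ± 26.3 CPM per kilobase), DNMT3B (4.94 ± 4.19), TET3 (3.51 ± 0.653) and DNMT1 (1.44 ± 1.31), with UHRF2 at 0.470 ± 0.396. DNMT3B ran from 0.509 to 6.84 CPM per kilobase in HU and from 0.942 to 9.30 in Thy-Noc, so its place is uncertain. Merged exons can exceed any 1 transcript, with 9.919 kb for UHRF2 and 9.796 kb for DNMT1 beside longest transcripts of 3723 and 5408 bases. For TET3 these were 12.271 kb and 11388 bases. The order of TET3, DNMT1 and UHRF2 therefore depends on the length used.

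UHRF2, which like UHRF1 carries a ubiquitin ligase RING domain, was the 1 tested member whose 3 groups did not overlap. It lies on the plus strand of chromosome 9 from 6413151 to 6507054 (ENSG00000147854) and has 13 annotated transcripts. UHRF2 had 58.2, 58.6 and 62.5 CPM in HU, 0.219, 7.67 and 6.11 CPM in Thy-Noc, and 25.7, 30.7 and 22.5 CPM in DMSO. Every HU library was above every DMSO library, and every Thy-Noc library was below every DMSO library. Of the tested genes, 203 (1.79%) had no overlap among the 3 groups in any order, and 27 (0.238%) had this order. Its replicates were tight in HU (59.8 ± 2.4 CPM) and DMSO (26.3 ± 4.15 CPM) and wide in Thy-Noc (4.67 ± 3.93 CPM; mean ± SD, n = 3 each).

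Differences were tested with edgeR (quasi-likelihood, p adjusted by Benjamini-Hochberg over all genes, threshold 0.05), and those of UHRF2 did not pass. The log2 fold change was 1.18 ± 0.95 for HU against DMSO (SE; adjusted p 0.551), −2.49 ± 0.99 for Thy-Noc against DMSO (adjusted p nearly 1, at 0.9998) and 3.68 ± 1.04 for HU against Thy-Noc (adjusted p 0.123). The last of these was a 12.8-fold difference with a 95% interval from 2.34-fold to 69.96-fold. Each SE draws on the spread of all 9 libraries, so the wide Thy-Noc group also enters HU against DMSO. With only the HU and DMSO libraries fitted, that log2 fold change was 1.18 (edgeR adjusted p 0.0587). With only the Thy-Noc and DMSO libraries, theirs was −2.49 (edgeR adjusted p 0.9996). Thy-Noc replicate 1, at 0.219 CPM, was the lowest library. Without it, the edgeR log2 fold changes were 1.19, −1.93 and 3.13, and all 3 passed (adjusted p 0.0343, 0.0485 and 0.00616). DESeq2 called the HU against Thy-Noc difference with all libraries (adjusted p 0.00134). An antisense gene overlaps UHRF2, and without a stated strand setting reads of the pair cannot be told apart. A pseudogene, UHRF2P1, is also annotated, and the counting could have split reads between it and UHRF2.

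**Figure D1:**
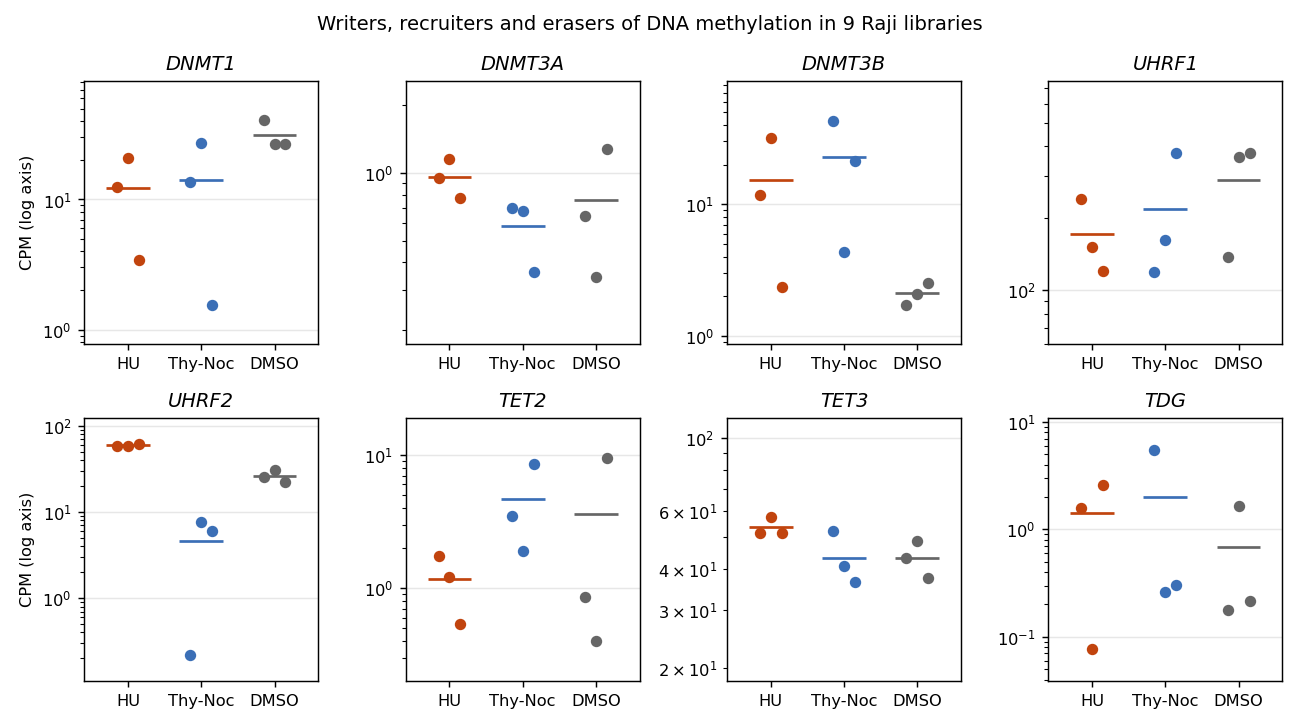
CPM (log axis) of the 8 listed genes in each library, with HU, Thy-Noc and DMSO from left to right, replicates 1 to 3 as points and the group mean as a line. UHRF2 is the gene whose 3 groups do not overlap, with HU between 58.2 and 62.5 CPM.

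DNMT1, the maintenance methyltransferase, was lower in both treated groups on average. The gene (ENSG00000130816) is annotated with 28 transcripts at chromosome 19, 10133345 to 10231286, minus strand. It had 12.5, 20.7 and 3.4 CPM in HU, 13.7, 27.1 and 1.54 CPM in Thy-Noc, and 40.7, 26.6 and 26.6 CPM in DMSO. The HU libraries all lay below the DMSO libraries, while Thy-Noc replicate 2 reached the DMSO range. In both treated groups replicate 3 was the low library, by a wide margin.

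The DNMT1 differences did not pass the test. The log2 fold change was −1.36 ± 0.98 for HU against DMSO, with a 95% interval from −3.65 to 0.93, and −1.15 ± 0.97 for Thy-Noc against DMSO (edgeR quasi-likelihood adjusted p 0.493 and 0.9998). Leaving out 1 library gave −1.98 (without HU replicate 2) to −0.91 (without HU replicate 3) for HU, and −2.04 (without Thy-Noc replicate 2) to −0.61 (without Thy-Noc replicate 3) for Thy-Noc. HU and Thy-Noc differed by −0.21 ± 0.96, with an interval from −2.47 to 2.04, so a difference of either sign was within the error. S1PR2, a receptor gene that overlaps DNMT1 on the same strand, had 85.7 ± 24.8 CPM in HU, 85.4 ± 26.7 CPM in Thy-Noc and 99.4 ± 7.26 CPM in DMSO. The part of the overlap and of cell cycle phase in the DNMT1 values was not tested.

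DNMT3B, a de novo methyltransferase, was higher on average in both treated groups. It lies on the plus strand of chromosome 20 from 32762385 to 32809356 (ENSG00000088305), has 6 annotated transcripts and no annotated overlapping gene. DNMT3B had 11.7, 31.7 and 2.36 CPM in HU, 43.1, 4.36 and 21.1 CPM in Thy-Noc, and 1.74, 2.07 and 2.53 CPM in DMSO. The DMSO libraries were close together and low. Thy-Noc lay wholly above them, whereas HU replicate 3 was within the DMSO range.

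The fitted DNMT3B log2 fold change was 2.85 ± 1.06 for HU against DMSO and 3.43 ± 1.09 for Thy-Noc against DMSO. Without HU replicate 2 the HU value was 1.74, and without Thy-Noc replicate 1 the Thy-Noc value was 2.59. Neither passed by edgeR (adjusted p 0.185 and 0.9998), although the unadjusted p was 0.0306 and 0.0155. DESeq2 called both, with adjusted p of 0.0263 and 0.0359, and limma on log2(CPM + 0.5) called neither, with 0.323 and 0.9996. The comparisons share the DMSO libraries, so they are not separate evidence. HU against Thy-Noc gave −0.58 ± 1.0 (edgeR adjusted p 0.84).

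DNMT3A, the other de novo enzyme, was near the lower limit and was not tested. It had 0.949, 1.15 and 0.772 CPM in HU, 0.697, 0.675 and 0.362 CPM in Thy-Noc, and 0.647, 0.345 and 1.28 CPM in DMSO. These values come from 35 to 101 expected counts per library, and the treated groups both overlapped DMSO. HU lay above Thy-Noc in every library.

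TET3 was the steadiest member. This oxidase had 51.5, 57.6 and 51.4 CPM in HU, 52.0, 40.9 and 36.4 CPM in Thy-Noc, and 43.1, 48.7 and 37.4 CPM in DMSO. The HU libraries were all above the DMSO libraries, by a small margin, and Thy-Noc overlapped both. The HU against DMSO log2 fold change was 0.31 ± 0.17 (edgeR quasi-likelihood adjusted p 0.344), a fold of 1.24 with a 95% interval from 0.945 to 1.63. For Thy-Noc against DMSO the fold was 1.0 with an interval from 0.762 to 1.31, a range narrower than that of any other tested member in this comparison. HU against Thy-Noc gave a log2 fold change of 0.31 ± 0.17 (edgeR adjusted p 0.376). The gene AC110801.1 overlaps TET3 on the opposite strand, and the same limit of the unstated strand setting applies.

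TET2, the family member mutated in many blood cancers, was low and uneven. It had 1.75, 1.21 and 0.534 CPM in HU, 3.48, 1.91 and 8.55 CPM in Thy-Noc, and 0.862, 0.401 and 9.51 CPM in DMSO. Replicate 3 was the high library of both Thy-Noc and DMSO, and HU lay below Thy-Noc with no overlap. HU against Thy-Noc had a log2 fold change of −2.0 ± 1.22 (edgeR quasi-likelihood adjusted p 0.439), and HU against DMSO one of −1.63 ± 1.2 (adjusted p 0.508). Thy-Noc against DMSO gave 0.37 ± 1.17, with a 95% interval from −2.38 to 3.13. Without DMSO replicate 3, the HU against DMSO value turned to 0.89 and the Thy-Noc against DMSO value was 2.88. Without Thy-Noc replicate 3, the HU against Thy-Noc value was −1.21. The antisense gene TET2-AS1 overlaps TET2, and without a stated strand setting of the counting their reads cannot be told apart here.

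TDG had few counts in most libraries. It had 1.59, 0.0777 and 2.56 CPM in HU, 5.46, 0.26 and 0.3 CPM in Thy-Noc, and 0.177, 1.66 and 0.216 CPM in DMSO, so all groups overlapped. One library carried most of the Thy-Noc mean, and without Thy-Noc replicate 1 the Thy-Noc against DMSO log2 fold change went to −1.29, where all libraries gave 1.54 ± 1.63. The other values were 1.04 ± 1.61 for HU against DMSO and −0.50 ± 1.59 for HU against Thy-Noc, and none passed (edgeR adjusted p 0.805 to 0.9998). Leaving out 1 library moved the HU against DMSO value between 0.29 (without HU replicate 3) and 2.84 (without DMSO replicate 2). The pseudogene TDGP1 had 0.545 ± 0.174 CPM in HU, 0.684 ± 0.177 CPM in Thy-Noc and 0.588 ± 0.11 CPM in DMSO (mean ± SD, n = 3 each). The counting could have split reads between TDG and this copy, so TDG is uncertain.

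Spread between replicates was wide across the set. For each tested gene, the highest library of a group was divided by the lowest after adding 0.5 CPM, and the largest of the 3 groups was kept. This measure was 13.5 for DNMT1 and 11.4 for UHRF2 (both in Thy-Noc), 11.3 for DNMT3B (in HU), 11.1 for TET2 (in DMSO), 7.85 for TDG, 3.11 for UHRF1 and 1.42 for TET3. The median over all tested genes was 2.03. It was at least 10 in 4 of the 7 members and in 16.2% of all tested genes.

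**Figure D2:**
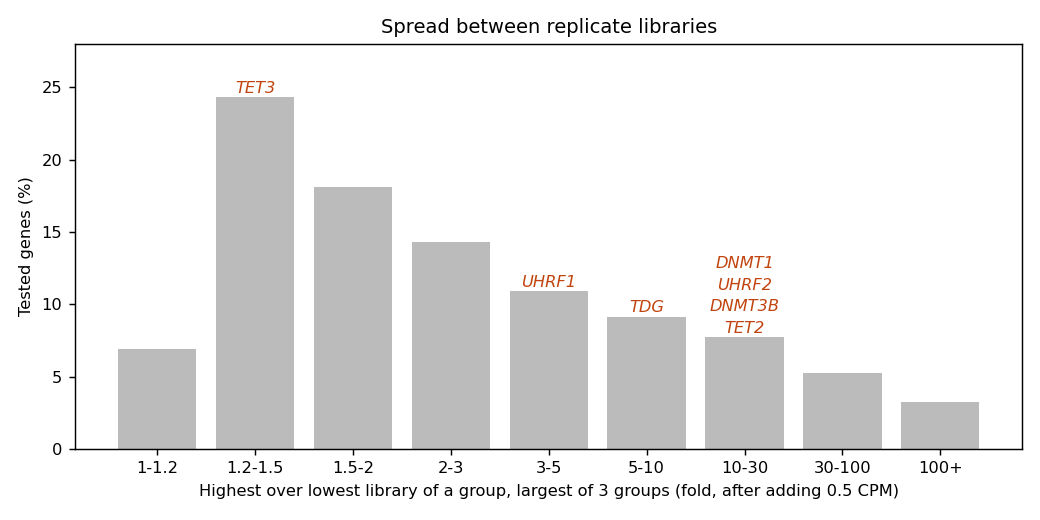
Percentage of all tested genes (y axis) by the largest within-group ratio of highest to lowest library (x axis, fold after adding 0.5 CPM), with the 7 tested members named above their bin. DNMT1, UHRF2, DNMT3B and TET2 are in the bin from 10 to 30, and TET3 is among the steady genes.

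Counted over the set, no member passed in any comparison by edgeR's quasi-likelihood test. For HU against DMSO it called 0 of 7, where it called 3.56% of all tested genes (2% higher and 1.56% lower). Before adjustment 1 of 7 had p under 0.05 (21.2% of all), DESeq2 called 1 (18.8% of all), and limma called 0 with a pseudocount of 0.5 CPM (4.95% of all) and 0 with one of 1 CPM (5.05% of all). For Thy-Noc against DMSO edgeR called 0 of 7, where it called 0.0353% of all tested genes (0.0264% higher and 0.00881% lower). Before adjustment 2 of 7 had p under 0.05 (4.49% of all), DESeq2 called 1 (1.58% of all), and limma called 0 with either pseudocount (0.106% of all). For HU against Thy-Noc edgeR called 0 of 7, where it called 1.75% of all tested genes (0.696% higher and 1.06% lower). Before adjustment 1 of 7 had p under 0.05 (19.4% of all), DESeq2 called 1 (16.1% of all), and limma called 0 with a pseudocount of 0.5 CPM (2.87% of all) and 1, UHRF2, with one of 1 CPM (3.05% of all). The 95% intervals were wide for every tested member except TET3, so these counts do not show that the genes were alike between groups.

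Groups did not overlap for DNMT1, UHRF2 and TET3 in HU against DMSO, 3 of 7, where 30.7% of all tested genes did the same (15.5% higher and 15.3% lower in HU). They did not overlap for DNMT3B and UHRF2 in Thy-Noc against DMSO (2 of 7, beside 9.97% of all, of which 5.18% were higher and 4.79% lower in Thy-Noc), and for UHRF2 and TET2 in HU against Thy-Noc (2 of 7, beside 24.9% of all, of which 12.9% were higher and 12% lower in HU). The median log2 fold change of the 7 was 0.31 for HU against DMSO, where the median of all tested genes was 0.02. It was −0.35 for HU against Thy-Noc, beside 0.01 for all genes, and 0.00073 for Thy-Noc against DMSO, beside 0.01 for all genes.

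**Figure D3:**
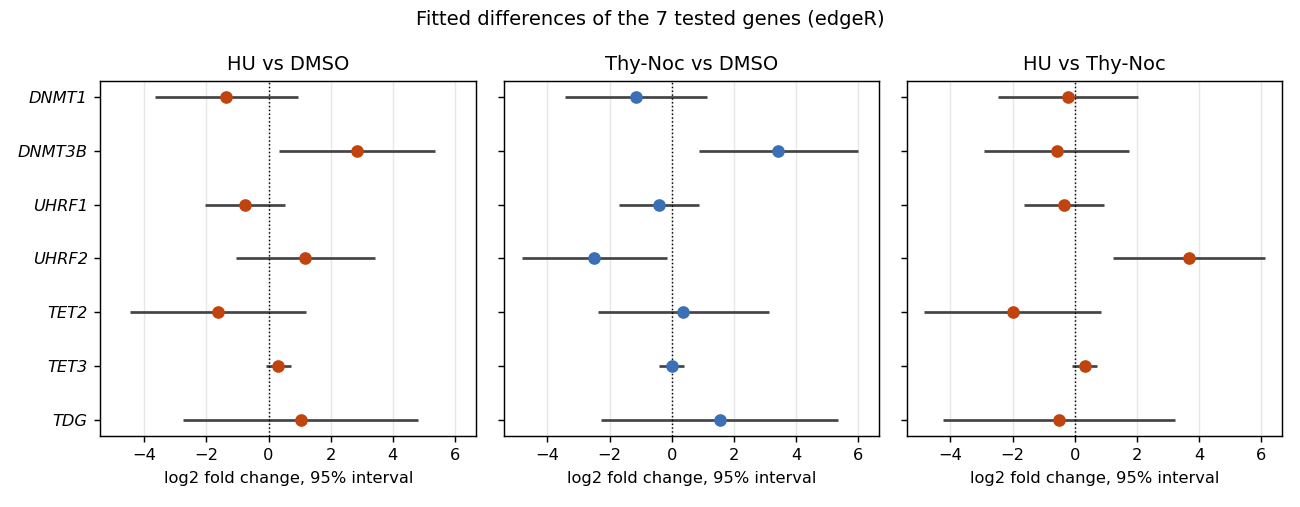
Fitted log2 fold change (points) with its 95% interval (lines) for the 7 tested members, for HU against DMSO, Thy-Noc against DMSO and HU against Thy-Noc. The intervals of DNMT3B against DMSO, in HU and in Thy-Noc, and those of UHRF2 in Thy-Noc against DMSO and HU against Thy-Noc leave out 0, though none passed after adjustment, and TET3 has the shortest intervals.

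Members did not share 1 pattern over the libraries. Pearson's r of log2(CPM + 0.5) over the 9 libraries was −0.111 for DNMT1 with UHRF1, and it ran from −0.652 (TET2 with TET3) to 0.489 (TET3 with TDG) over all pairs. Among all other tested genes, the closest in pattern were PARG (r = 0.973) and SFSWAP (0.929) for DNMT1, PICALM (0.955) and TRIM65 (0.953) for DNMT3B, and C1orf43 (0.951) and ITGB1BP1 (0.925) for UHRF1. For UHRF2 C6orf47 (0.965) is given, for TET2 OSGEPL1 (0.921) and PHB2 (0.914), for TET3 SIAE (0.967) and FAM8A1 (0.947), and for TDG SLC36A4 (0.941). A high r does not mean a change of like size. PARG ran from 44.5 to 69.1 CPM over the 9 libraries, where DNMT1 ran from 1.54 to 40.7 CPM. C6orf47, PHB2 and SLC36A4 also had narrow ranges, while TRIM65 ran from 0.0477 to 124 CPM. The r values are descriptions from libraries that all genes share, and the best of 11346 tested genes over 9 points is high by selection.

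Genes that work with these enzymes were examined by list. Of 16 tested partners in methylation and chromatin, 1 was higher and 2 were lower in HU than in DMSO (2% and 1.56% of all). Their median log2 fold change was −0.50, beside 0.02 over all tested genes. The spread measure used above was at least 10 in 5 of these 16, beside 16.2% of all tested genes, and SETD2 was not among them. It was at least 10 in 1 of the 20 demethylation and base excision genes and in 3 of the 12 methyl donor genes below. SETD2, the methyltransferase of the histone H3 lysine mark that DNMT3 enzymes read in gene bodies, had 174, 111 and 135 CPM in HU, 51.0, 111 and 47.9 CPM in Thy-Noc, and 1.76, 1.36 and 1.12 CPM in DMSO. Both treated groups stood far above DMSO with no overlap. The DMSO values of SETD2 come from 88 to 146 expected counts, just above the filter of 1 CPM. Swings of this size also occurred within a group in this list. SETDB1 had 0.216, 90.2 and 119 CPM in DMSO, and KDM1A had 2.70, 0.0777 and 309 CPM in HU. Whether the SETD2 difference is of this kind was not tested. SETD2 rose in HU by 6.63 ± 0.47 on the log2 scale and in Thy-Noc by 5.63 ± 0.45 (edgeR quasi-likelihood adjusted p 0.00329 and 0.00995). The HU call held in all 20 alternatives tried. The Thy-Noc call ended in 3 (adjusted p up to 0.115), those without DMSO replicate 2, with the 2 compared groups alone and with replicate number as a term.

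CDCA7, a partner of the remodeler HELLS in maintenance methylation, had 102, 117 and 127 CPM in HU, 232, 202 and 193 CPM in Thy-Noc, and 171, 255 and 256 CPM in DMSO. NSD2, a histone H3 methyltransferase, had 1005, 1375 and 1296 CPM in HU, 1904, 1871 and 1883 CPM in Thy-Noc, and 1805, 1971 and 1797 CPM in DMSO. In both genes every HU library was below every DMSO library. CDCA7 fell by 0.98 ± 0.18 and NSD2 by 0.60 ± 0.12 on the log2 scale in HU against DMSO (edgeR quasi-likelihood adjusted p 0.0379 and 0.0483). The calls ended in 11 and 13 of the 20 alternatives (adjusted p up to 0.126 and 0.153), among them the fits with replicate number as a block, with the compared groups alone, without any 1 HU or Thy-Noc library, without DMSO replicate 2 or 3 and, for NSD2, without DMSO replicate 1. Both stayed negative in every alternative tried, at −1.15 to −0.87 and −0.69 to −0.47. The summed G2/M genes were also lower in HU, and their part in these values was not tested.

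Of 20 tested genes of demethylation and base excision, 1 was higher and 0 were lower in HU than in DMSO (2% and 1.56% of all). Their median log2 fold change was 0.03. IDH2, whose enzyme makes the 2-oxoglutarate that TET enzymes consume, had 105, 119 and 127 CPM in HU, 68.1, 79.3 and 85.9 CPM in Thy-Noc, and 65.3, 70.0 and 72.9 CPM in DMSO. IDH2 rose in HU by 0.76 ± 0.12 on the log2 scale (edgeR quasi-likelihood adjusted p 0.0277), and HU lay above both other groups. Its relative IDH1, in the same list, went the other way. IDH1 had 54.1, 64.0 and 60.4 CPM in HU and 88.4, 81.8 and 109.7 CPM in DMSO. Its log2 fold change was −0.65 ± 0.16 and did not pass by edgeR (adjusted p 0.0777). DESeq2 called IDH1 (adjusted p 0.00116), beside 18.8% of all tested genes. The IDH2 call ended in 8 of 20 alternatives (edgeR adjusted p up to 0.0975), with values from 0.70 to 0.86. These were the replicate block, the compared groups alone and each fit that left out a DMSO or HU library.

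Of 12 tested genes that supply methyl groups, 0 were higher and 1 was lower in HU than in DMSO (2% and 1.56% of all). The list had 11 negative fold changes and a median log2 fold change of −0.56, beside 0.02 over all tested genes. MAT2A, which makes S-adenosylmethionine, the methyl donor of the DNMT enzymes, had 147, 89.0 and 158 CPM in HU, 249, 282 and 257 CPM in Thy-Noc, and 331, 239 and 328 CPM in DMSO. HU was below both other groups in every library. MAT2A fell by 1.19 ± 0.23 on the log2 scale in HU against DMSO (edgeR quasi-likelihood adjusted p 0.0445), a call that ended in 12 of 20 alternatives. These included the replicate block and the fits without any 1 DMSO or Thy-Noc library and without HU replicate 1 or 3 (adjusted p up to 0.129, values from −1.34 to −0.97).

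For Thy-Noc against DMSO, SETD2 was the 1 call among these 3 partner lists, where edgeR called 0.0353% of all tested genes. For HU against Thy-Noc these lists held 0 calls by edgeR (1.75% of all tested genes). Before adjustment 5, 5 and 3 genes had p under 0.05 (19.4% of all), and DESeq2 called 3, 4 and 1 (16.1% of all). The smallest adjusted p of each list there was 0.0567 (NSD2), 0.0609 (IDH2) and 0.0808 (MAT2A) by edgeR's quasi-likelihood test. A list of 15 germline genes known for promoter methylation was not analysed here. Among the 12 G1/S genes, 2 were higher and 0 lower in HU than in DMSO, beside 2% and 1.56% of all tested genes. The 2 were the cyclin gene CCNE2 and the histone mRNA binder SLBP. SLBP was also the 1 higher in Thy-Noc than in DMSO, beside 0.0264% of all. The SLBP call in HU held in all 20 alternatives, that in Thy-Noc ended with the replicate block (edgeR adjusted p 0.0855), and that of CCNE2 ended in 9. Between HU and Thy-Noc 0 passed (1.75% of all), with 3 at p under 0.05 before adjustment (19.4%) and 2 by DESeq2 (16.1%). Among the 12 G2/M genes, 4 were lower in HU than in DMSO (CCNA2, CDC20, CENPF and TOP2A), beside 1.56% of all tested genes. These with BUB1, 5 in all, were lower in HU than in Thy-Noc, beside 1.06% of all tested genes. Against DMSO these calls ended in 6 or 7 of 20 alternatives, the replicate block and the fits without any 1 DMSO library or HU replicate 1 or 3 among them. Against Thy-Noc they ended in 4 (CDC20) to 13 (BUB1), in each case with the replicate block, without HU replicate 1 and without Thy-Noc replicate 3. The fold changes stayed negative in all of them. For Thy-Noc against DMSO 0 passed (0.0353% of all), with 0 at p under 0.05 before adjustment (4.49%) and 0 by DESeq2 (1.58%).

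**Figure D4:**
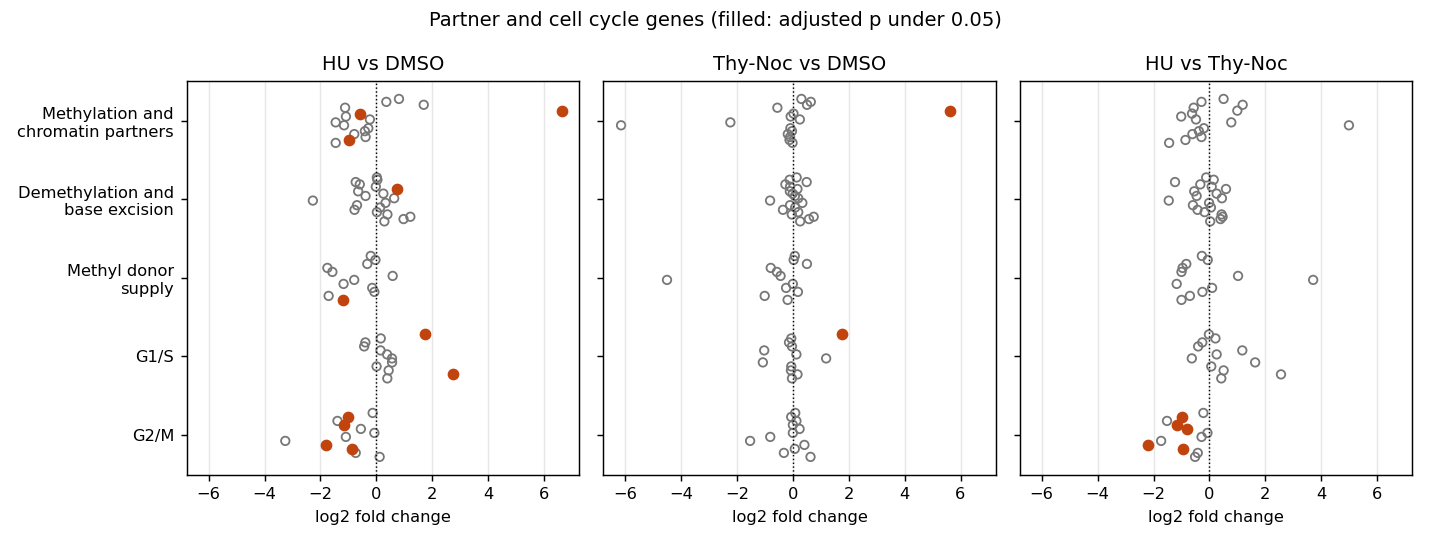
Log2 fold change (x axis) of each tested gene in 3 partner lists and 2 cell cycle lists (rows) for the 3 comparisons, with filled points for an edgeR adjusted p under 0.05. SETD2 is the filled point at 6.63 for HU against DMSO and at 5.63 for Thy-Noc against DMSO.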

How the data were processed

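RNA of 9 Raji libraries was made into libraries with a stranded mRNA kit, per the labels' protocols. FastQC, Trim Galore, STAR and DESeq2 and the build GRCh38 are named in the submitters' processing notes without roles. The counting tool, annotation and strand setting were not given in the sources used here. Per gene and library, the authors deposited 1 table of values, here used as estimated counts. Its name calls them CPM, but the values are whole and each library has its own total. No deposited value is under 1, and 274 genes stand at 1 in all libraries, so a value may not be a full read count.

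Names came from a gene table, which matched 15393 of 15436 identifiers. Genes with at least 1 CPM in at least 3 libraries were scaled by TMM and fitted in R 4.3.3 with edgeR 4.0.16 (quasi-likelihood, 3 groups, 6 residual degrees of freedom, two-sided, threshold 0.05 after Benjamini-Hochberg adjustment). CPM values use TMM-scaled totals. Each SE is the fold change (log2) over the root of F, and 95% intervals use Student quantiles with 1.25 prior degrees of freedom added. The scripts were tested on simulated data drawn with a fixed, assumed dispersion, which does not carry the spread of these libraries. DESeq2 1.42.0, limma 3.58.1, other filters and scalings, the replicate number as a block and leaving out each library were the alternatives. Libraries of a group differed by far more than counting noise, with a chi-square per degree of freedom of 691 to 911. Coordinates, exon lengths and transcript numbers are from GENCODE release 29 (GRCh38), promoters from RefSeq. Members, lists and rules were chosen with earlier results of these data known. Every member was described, with up to 4 called genes per list, comparison and direction by smallest adjusted p, some left out, and the 2 genes most correlated with each member. A few genes that these rules name are not reported here.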

Additional observations from a re-analysis of the deposited data

How the results depend on the processing

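The count of members called was 0 of 7 in each comparison. It was 1 with DESeq2 for HU against DMSO, Thy-Noc against DMSO and HU against Thy-Noc (DNMT3B, DNMT3B and UHRF2), 1 with limma at a pseudocount of 1 CPM for HU against Thy-Noc (UHRF2, where 3.05% of all tested genes were called), and 0 to 1 over the fits that left out 1 library, where the call was UHRF2 without Thy-Noc replicate 1. With the replicate number as a block it was 0 in all 3 comparisons. Numbers were not taken as pairing: deviations from group means of libraries with the same number correlated at −0.035 to 0.0405. Between HU and Thy-Noc the 3 same-number pairs were positive (0.0292 to 0.0405) and the 6 others negative (−0.0335 to −0.00597). Deviations cancel within a group, so the negative values follow in part from the positive ones and are not added evidence. The positive pairs are at most a hint, and these values do not settle whether the numbers mark pairs. Same-number pairs with DMSO had both signs, at −0.0158, 0.00439 and −0.035 with HU and 0.0324, −0.0108 and 0.0215 with Thy-Noc (replicates 1 to 3). DMSO replicate 1 correlated about equally with HU replicate 3 (0.033) and Thy-Noc replicate 1 (0.0324).

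Of 413 member values under alternatives, 385 kept their direction and 28 reversed. TET3 for Thy-Noc against DMSO was −0.0011 with no filter, −0.00072 with median-of-ratios scaling, −0.042 with total-count scaling, −0.0012 with DESeq2, −0.0069, −0.0068 and −0.0067 with limma at pseudocounts of 0.1, 0.5 and 1, and −0.0016 with the replicate block. For HU against Thy-Noc, DNMT1 was 0.19, 0.14 and 0.098 with limma at pseudocounts of 0.1, 0.5 and 1 and 0.0078 with the block, and TDG was 0.000997 and 0.011 with limma at 0.1 and 0.5 and 0.26 with the block. Leaving out 1 library gave log2 ranges across 0 for TET2 (−2.15 to 0.89) in HU against DMSO, for TET2 (−0.41 to 2.88), TET3 (−0.15 to 0.11) and TDG (−1.29 to 3.34) in Thy-Noc against DMSO, and for DNMT1 (−0.83 to 0.68), DNMT3B (−1.70 to 0.27), UHRF1 (−0.67 to 0.29) and TDG (−1.26 to 2.34) in HU against Thy-Noc. The cause was not tested.

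Over all genes, edgeR called 404 for HU against DMSO (9 with the block, 2135 with DESeq2), 4 for Thy-Noc against DMSO (0 and 179) and 199 for HU against Thy-Noc (0 and 1826). Fits of 8 libraries called 21 to 318, 5 to 13 and 1 to 103. The alternatives for SETD2, CDCA7, NSD2, IDH2, MAT2A and the cell cycle genes were added after seeing the data. TDG (6 to 400 expected counts per library) and DNMT3A (35 to 101) had low counts in most libraries. The parts of depth and of spread in their values were not tested.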

Other observations

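HELLS, the chromatin remodeler that works with CDCA7 in maintenance methylation, was chosen here after its values were seen. It had 151, 11.9 and 3.51 CPM in HU, 125, 152 and 176 CPM in Thy-Noc, and 152, 145 and 160 CPM in DMSO. HU replicate 1 lay among the other libraries, while HU replicates 2 and 3 were far below them. Its log2 fold change for HU against DMSO was −1.45 ± 1.15 (edgeR adjusted p 0.546). PCNA, the sliding clamp that helps bring DNMT1 to replicated DNA, was also chosen after its values were seen. It had 337, 292 and 369 CPM in HU and 430.0, 427 and 468 CPM in DMSO, with no overlap. Its log2 fold change of −0.41 ± 0.15 missed the threshold (edgeR adjusted p 0.18). GADD45A, a stress-induced factor linked to demethylation, and MTHFD1, a folate enzyme, were likewise chosen after their values were seen. GADD45A had 60.1 ± 4.64 CPM in HU and 38.6 ± 4.61 CPM in DMSO (mean ± SD, n = 3 each). Its log2 fold change was 0.64 ± 0.16 (edgeR adjusted p 0.0739). MTHFD1 had 96.6 ± 10.8 CPM in HU and 287 ± 91.1 CPM in DMSO, a log2 fold change of −1.57 ± 0.43 (edgeR adjusted p 0.0975). For HU against DMSO, DESeq2 called GADD45A and MTHFD1 (adjusted p 0.000837 and 0.00563) but not HELLS or PCNA (0.427 and 0.0618). It called 18.8% of all tested genes in this comparison.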
